A study of Mus musculus with 2 samples.

Results

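The genes described here are 4 gasdermins (Gsdmc2, Gsdmc3, Gsdmc4 and Gsdmd) and 2 small proline-rich genes (Sprr2a1 and Sprr2a3), taken by symbol from the 17134 genes of a deposited count table. They were picked partly because several had more reads in the knockout library, so their ratios between the libraries are a description and carry no test. The table holds RNA sequencing of tuft cells, the rare chemosensory cells of the gut epithelium, sorted as EpCAM+ SiglecF+ cells from the small intestine of naïve mice. One library, called WT, came from mice labelled Spib+Villin-cre. The other, called Spib_KO, came from mice labelled Spibfl/flVillin-cre, in which Cre recombinase driven by the Villin promoter acts throughout the intestinal epithelium on a floxed Spib gene. Both genotypes carry Villin-cre. Neither the number nor the age of the mice, nor the deleted stretch of Spib, is given in the sources used here. With 1 library per genotype there was no replicate check and no test between genotypes, and every difference below describes these 2 libraries.

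Gasdermins are proteins whose amino-terminal part is released by proteases and forms pores in membranes, which can end in lytic cell death (pyroptosis) or in release of cytokines. Gsdmd is the gasdermin cut by inflammatory caspases, and the mouse Gsdmc genes are known to be induced in intestinal epithelium by the type 2 cytokines IL-4 and IL-13 through STAT6. Sprr2a genes encode small proline-rich proteins, known as cross-linked components of the cornified envelope in skin and, in the gut, as an antibacterial product of epithelial cells that rises during type 2 responses and bacterial colonisation.

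Reads assigned to genes numbered 17925421 for WT and 17228665 for Spib_KO. Spib itself, which encodes an ETS family transcription factor, had 6266 reads in WT and 48 in Spib_KO. All 20 listed tuft cell markers were measured, with summed levels of 21509 CPM (read counts scaled to each library's TMM-adjusted total) in WT against 20549 CPM in Spib_KO, and the sort genes Epcam and Siglecf had log2 ratios (Spib_KO over WT throughout) of -0.06 and 0.14. Within that list the taste receptor gene Tas1r3 was called higher and the phospholipase gene Plcb2 lower. Measured genes were those with 5 CPM or more and 30 reads or more in either library. A call of higher or lower in Spib_KO was made where the whole 95% counting interval of its ratio lay beyond a 2-fold difference. Amplified reads with no molecular identifiers are not separate molecules, and the intervals given here cover counting error only. In bulk RNA of sorted cells, a larger share of cells with a transcript and more of it per cell cannot be told apart.

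The Sprr2a genes lie in a row on the forward strand of mouse chromosome 3 (RefSeq, GRCm38.p6), Sprr2a1 from 92215835 to 92222491, Sprr2a2 from 92250647 to 92257304 and Sprr2a3 from 92285304 to 92289264. Their coding sequences, from GENCODE M21 transcripts on the same assembly, are shown because they limit what short reads can separate. Capitals mark the positions at which 1 of the 3 genes differs from the others, and positions are counted from 1 at the first base of the start codon.
Sprr2a1: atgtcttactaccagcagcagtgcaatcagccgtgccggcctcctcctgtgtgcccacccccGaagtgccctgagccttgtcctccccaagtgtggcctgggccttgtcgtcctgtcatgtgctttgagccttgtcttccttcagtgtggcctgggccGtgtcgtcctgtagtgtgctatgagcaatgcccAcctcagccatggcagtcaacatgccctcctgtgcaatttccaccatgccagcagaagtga
Sprr2a3: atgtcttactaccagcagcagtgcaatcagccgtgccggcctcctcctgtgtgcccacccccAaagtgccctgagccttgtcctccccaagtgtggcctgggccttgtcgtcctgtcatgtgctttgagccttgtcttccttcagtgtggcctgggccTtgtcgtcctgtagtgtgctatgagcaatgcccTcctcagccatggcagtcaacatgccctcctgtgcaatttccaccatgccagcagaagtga
The 252 coding bases of Sprr2a2 are identical to those of Sprr2a1. Sprr2a3 differs from both by 3 substitutions, G63A, G159T and A192T.

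The Gsdmc genes lie together on the reverse strand of chromosome 15, Gsdmc from 63775971 to 63808739, Gsdmc2 from 63824328 to 63845193, Gsdmc3 from 63857605 to 63878579 and Gsdmc4 from 63891140 to 63912319. Gsdmd stands apart on the same chromosome, from 75862144 to 75867408 on the forward strand. The coding sequences of Gsdmc2 and Gsdmc3 are 97.1% identical, and each is 93.0% identical to Gsdmc4. The identity to Gsdmc is 82.9% to 83.8%, and that of any Gsdmc gene to Gsdmd 49.4% to 50.8%. The stretch of 90 coding bases with the most differences among the 3 expressed Gsdmc genes shows what separates their reads. Capitals mark the 22 positions at which the 3 genes are not all the same, and the stretch runs from base 784 to base 873 in Gsdmc4 and from base 778 to base 867 in the other pair.
Gsdmc4: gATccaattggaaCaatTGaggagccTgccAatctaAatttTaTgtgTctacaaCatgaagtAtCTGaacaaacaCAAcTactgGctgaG
Gsdmc2: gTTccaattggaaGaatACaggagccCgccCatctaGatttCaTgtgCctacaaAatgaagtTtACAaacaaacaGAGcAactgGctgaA
Gsdmc3: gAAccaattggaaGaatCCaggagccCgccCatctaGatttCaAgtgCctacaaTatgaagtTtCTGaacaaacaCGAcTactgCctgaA

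How much of each transcript is its own was counted over whole GENCODE transcripts, untranslated parts included. Of all 50-base stretches in Sprr2a1 transcripts, 96.3% also occur in a transcript of another gene, and 96.5% of those in Sprr2a2. Sprr2a1 and Sprr2a2 have 110 and 100 such stretches of their own, against 1103 for Sprr2a3, of which 61.1% are shared. For Gsdmc2, Gsdmc3 and Gsdmc4 the shared portions are 51.3%, 46.0% and 39.0%, and no stretch of Gsdmd is shared. With 100-base stretches Sprr2a1 and Sprr2a2 still share 92.5% and 92.8%, whereas Gsdmc2, Gsdmc3 and Gsdmc4 share 20.2% to 28.6%. The deposited read counts of all 3 Sprr2a genes and of Gsdmc2, Gsdmc3 and Gsdmc4 are not whole numbers in either library, and those of Gsdmd and Gsdme are whole. The read length is not given in the sources used here. In GENCODE 1 transcript of Sprr2a2 also begins inside the first exon of Sprr2a1 (bases 92215920 to 92215962), so the gene models themselves overlap.

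**Figure D1:**
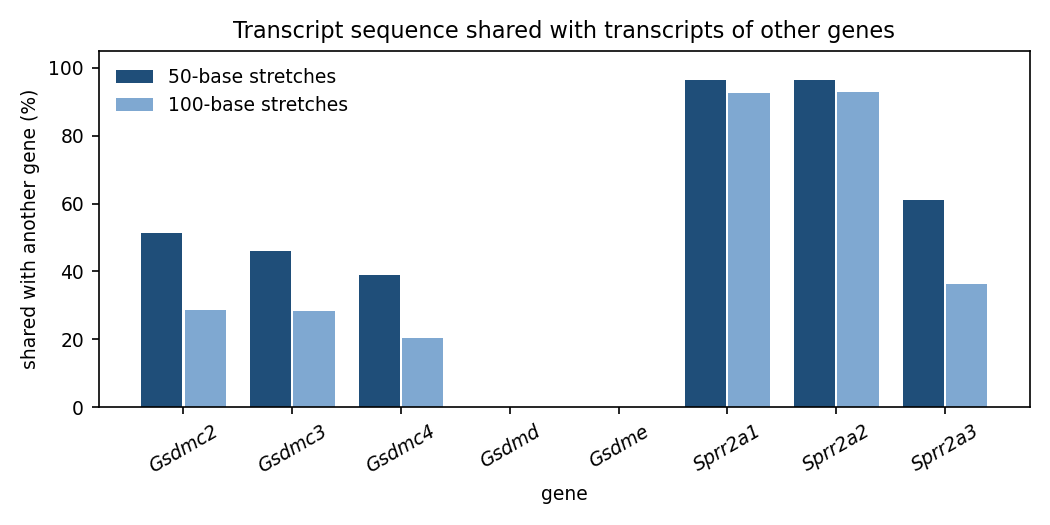
Share of all 50-base (dark bars) and 100-base (light bars) stretches of each gene's GENCODE M21 transcripts that also occur in a transcript of another gene, in percent. Sprr2a1 and Sprr2a2 are above 92% at both lengths, Gsdmc2, Gsdmc3 and Gsdmc4 lie between 20.2% and 51.3%, and Gsdmd and Gsdme are at 0.

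Of the 6 genes, all 6 were measured, 5 were called higher in Spib_KO and none lower. Over all 10707 measured genes 2.33% were called higher and 2.18% lower, and since the genes were picked on this contrast nothing is read from the difference between these shares. Gsdmd was the gene not called. Their median log2 ratio was 2.30, against 0.01 over all measured genes, whose quartiles were -0.26 and 0.28. By ratio from the highest, Sprr2a3 ranked 44th, Gsdmc2 64th, Gsdmc4 79th, Gsdmc3 80th and Sprr2a1 128th of 10707, and Gsdmd 9048th. The median and these ranks also reflect that choice of genes, and nothing is read from them.

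Gsdmc4 had the most reads of the Gsdmc genes in both libraries, with 773 reads in WT and 3648 in Spib_KO. This is 43.0 CPM (95% Poisson interval 40.0 to 46.1) and 213 CPM (206 to 220), a log2 ratio of 2.31 (2.19 to 2.42) or 4.95-fold. Gsdmc2 had 449 and 2404 reads, equal to 24.9 CPM (22.7 to 27.4) and 140 CPM (135 to 146). Its log2 ratio was 2.49 (2.34 to 2.64), which is 5.61-fold. Gsdmc3 was the least abundant of these, with 130 and 607 reads, or 7.22 CPM (6.04 to 8.58) and 35.4 CPM (32.6 to 38.3), a log2 ratio of 2.29 (2.02 to 2.58) or 4.88-fold. All 3 were thus called higher in Spib_KO, and the intervals of their 3 ratios overlapped one another. The founding member of the group, Gsdmc, had 0 reads in WT and 2 in Spib_KO. Both values are at or under the 3 reads that a count of 0 allows, so no fold is given.

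Summed over the 4 Gsdmc genes, a value that does not depend on how reads were divided among them, the group stood at 75.1 CPM in WT against 388 CPM in Spib_KO. The log2 ratio of the sum was 2.37 (2.28 to 2.45), or 5.16-fold, close to each of the 3 single ratios. The division itself was similar in both libraries. Gsdmc4 took 57.2% of the group's reads in WT (exact 95% binomial interval 54.5% to 59.8%) and 54.8% in Spib_KO (53.6% to 56.0%). Gsdmc2 took 33.2% (30.7% to 35.8%) and 36.1% (34.9% to 37.3%), and Gsdmc3 9.62% (8.10% to 11.3%) and 9.11% (8.43% to 9.83%). The intervals of the 2 libraries overlapped for each of these genes.

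**Figure D2:**
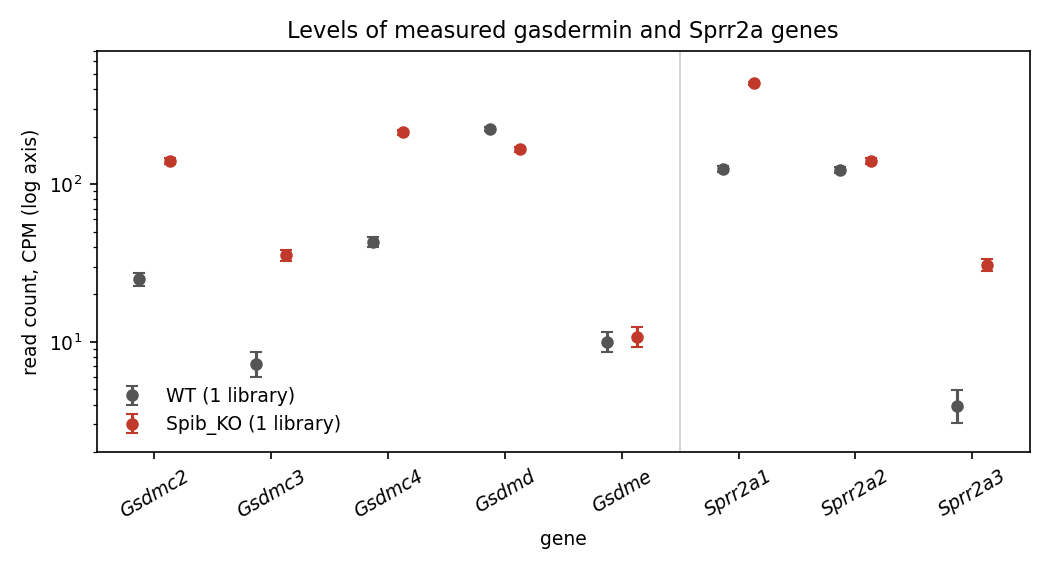
Read counts in CPM (log axis) of the measured gasdermin and Sprr2a genes in the WT library (grey) and the Spib_KO library (red), with bars for the exact 95% Poisson interval. Gsdmc2, Gsdmc3, Gsdmc4, Sprr2a1 and Sprr2a3 are well above WT in Spib_KO, Gsdmd is below it, and Gsdme and Sprr2a2 are close in both libraries.

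Gsdmd had 4026 reads in WT and 2863 in Spib_KO, or 224 CPM (217 to 231) and 167 CPM (161 to 173). It was the only one of the 6 with a lower level in Spib_KO, and its log2 ratio of -0.42 (-0.49 to -0.35), 1.34-fold lower, did not pass the 2-fold rule. Of the other gasdermins, Gsdme, cut by caspase-3 to form its pore, had 181 and 185 reads and a log2 ratio of 0.10 (-0.20 to 0.40). Gsdma, a gasdermin of skin and upper gut, had 37 and 20 reads and was not measured, nor were Gsdma3, with 1 and 4 reads, and Pjvk, with 0 and 1. Of the 5 measured gasdermins, the 3 called higher were Gsdmc2, Gsdmc3 and Gsdmc4, which were picked on this contrast. Over all measured genes 2.33% were called higher.

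Sprr2a1 had 2233 and 7475 reads in WT and Spib_KO, or 124 CPM (119 to 129) and 436 CPM (426 to 446), a log2 ratio of 1.81 (1.74 to 1.88). Sprr2a3 had 71 and 528 reads, or 3.95 CPM (3.08 to 4.98) and 30.8 CPM (28.2 to 33.5), and a log2 ratio of 2.95 (2.60 to 3.34). Sprr2a2, which was not among the picked genes, had 2207 and 2400 reads, or 123 and 140 CPM, and its log2 ratio was 0.19 (0.11 to 0.27). The 3 near-identical neighbours thus had ratios of 3.51-fold, 7.75-fold and 1.14-fold in the order given, and the intervals did not overlap.

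Summed over the 3 Sprr2a genes the WT level of 251 CPM compared with 606 CPM in Spib_KO, giving a log2 ratio of 1.27 (1.22 to 1.32) or 2.42-fold. The sum was called higher, by much less than Sprr2a3 alone and by less than Sprr2a1 alone. Sprr2a1 and Sprr2a2 together, which have the same coding sequence, gave a log2 ratio of 1.22 (1.17 to 1.27). Unlike for the Gsdmc genes, the division of reads differed between the libraries. Sprr2a1 took 49.5% of the Sprr2a reads in WT (48.0% to 51.0%) and 71.9% in Spib_KO (71.0% to 72.7%). Sprr2a2 went from 48.9% (47.5% to 50.4%) to 23.1% (22.3% to 23.9%), and Sprr2a3 from 1.57% (1.23% to 1.98%) to 5.08% (4.66% to 5.51%). The assignment of reads between Sprr2a1 and Sprr2a2 rests on the few stretches given above, and its error is not part of these intervals.

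**Figure D3:**
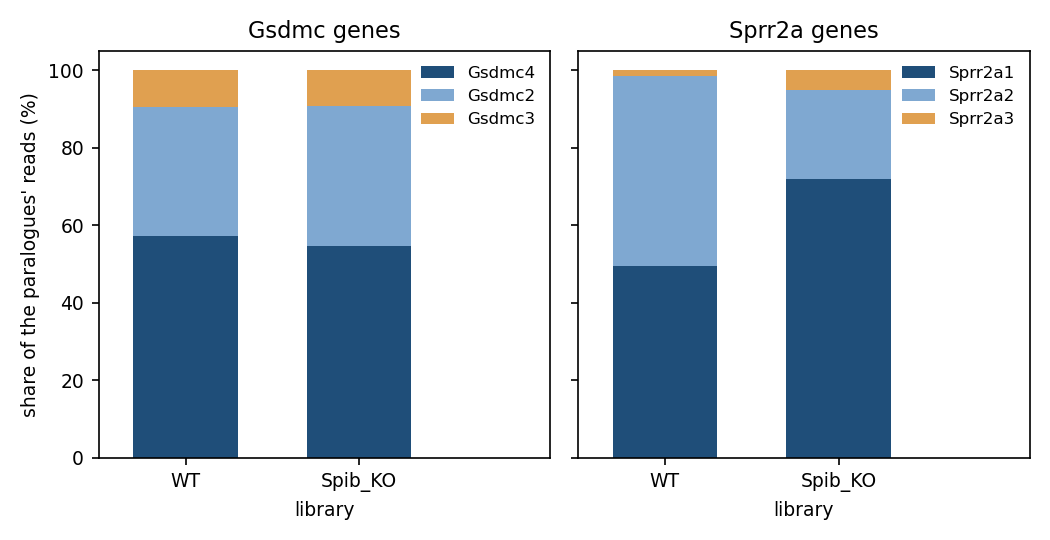
Division of the reads of the Gsdmc genes (left) and the Sprr2a genes (right) among the paralogues, in percent of the group's reads, for each library. The Gsdmc4 share is 57.2% in WT and 54.8% in Spib_KO, whereas the Sprr2a1 share is 49.5% in WT and 71.9% in Spib_KO.

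**Figure D4:**
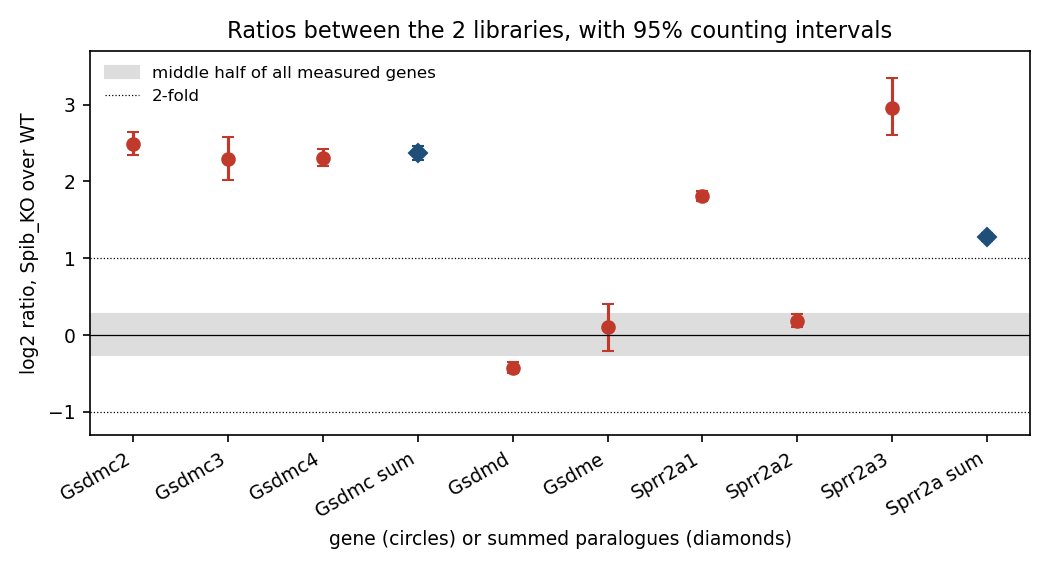
Log2 ratio of Spib_KO over WT with the 95% counting interval for single genes (circles) and summed paralogues (diamonds). The grey band spans the quartiles of all measured genes, -0.26 to 0.28, and dotted lines mark a 2-fold difference. The Gsdmc genes lie close to their sum of 2.37, and the Sprr2a genes are spread around a sum of 1.27.

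Other small proline-rich genes were scarce. The Sprr list names 16 genes, of which 6 have a row and 3, the Sprr2a genes, were measured. Sprr1a had 21 reads in WT and 9 in Spib_KO, Sprr2b 0 and 2, and Sprr2i 1 and 0. The cornified envelope list, which holds other skin barrier genes, had 7 of 34 members measured, 1 higher and 1 lower. Over all measured genes 2.33% were higher and 2.18% lower. The list had a median log2 ratio of -0.19 that turned to 0.046 without the expression filter. The higher gene was Ppl, encoding the desmosomal linker periplakin, with 47 and 159 reads and a log2 ratio of 1.82 (1.35 to 2.33). The lower gene was S100a11, encoding a calcium-binding protein, with a log2 ratio of -1.60.

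Levels can be ranked between genes only per length, for which the deposited TPM values, which divide by transcript length, were used. In WT the order was Gsdmd with 182 TPM, Sprr2a1 with 47.1, Sprr2a2 with 46.5, Gsdmc4 with 28.7, Gsdmc2 with 14.2, Sprr2a3 with 7.88, Gsdme with 6.63 and Gsdmc3 with 3.52. Carrying the counting error of the reads to this scale, neither Sprr2a1 and Sprr2a2 nor Sprr2a3 and Gsdme differed beyond their intervals. In Spib_KO the order was Sprr2a1 with 163 TPM, Gsdmc4 with 139, Gsdmd with 133, Gsdmc2 with 78.25, Sprr2a3 with 59.4, Sprr2a2 with 52.5, Gsdmc3 with 18.8 and Gsdme with 7.0. There the intervals of Gsdmc4 and Gsdmd overlapped, and those of Sprr2a3 and Sprr2a2. Gsdmd was thus the most abundant of these transcripts in WT, and in Spib_KO it stood below Sprr2a1. Among all measured genes, Gsdmc4 moved from rank 3812 to rank 1058 and Gsdmc2 from 5809 to 1721 by TPM.

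The order of the Sprr2a genes depends on the gene models. The deposited FPKM values imply an effective length of about 3327 bases for Sprr2a1 and 632 bases for Sprr2a3 in WT. Sprr2a3 held 5.08% of the Sprr2a reads in Spib_KO and 21.6% of the Sprr2a TPM. GENCODE gives Sprr2a3 both a long and a short transcript, and the model that the authors counted is not given in the sources used here. The effective length of Gsdmc3 differed between the libraries, 2581 bases in WT and 2363 in Spib_KO, whereas for Gsdmc4 it was 1885 and 1914 bases.

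The 84 bases at the far end of the 250-base windows before the RefSeq starts of Sprr2a1 and Sprr2a3 are shown because they hold all motif matches found in these windows. The motifs searched on both strands were TTC and GAA with 4 or with 3 bases between them (TTCNNNGAA), both of the type bound by STAT proteins, GAGGAA, a purine-rich core of the type bound by Spi-B and related ETS factors, and TATAAA. Capitals mark matches to the STAT-type motifs.
Sprr2a1, chr3:92215585-92215668: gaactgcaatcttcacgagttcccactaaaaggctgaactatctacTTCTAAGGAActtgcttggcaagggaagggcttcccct
Sprr2a3, chr3:92285054-92285137: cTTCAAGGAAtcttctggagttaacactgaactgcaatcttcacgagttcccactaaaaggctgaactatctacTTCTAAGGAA
The windows of Sprr2a1 and Sprr2a2 are identical over all 250 bases, and that of Sprr2a3 contains 222 bases of the same sequence, shifted by 28 bases. Each of the 3 windows thus holds TTCTAAGGAA, its left end at position -204 from the start in Sprr2a1 and Sprr2a2 and at -176 in Sprr2a3. Sprr2a3 also holds TTCAAGGAA at -249. Of 32851 promoter windows of this length, 5.85% hold the motif with 4 bases in between, 7.02% hold TTCNNNGAA, 23.3% hold GAGGAA and 12.4% hold TATAAA. The window of Gsdmc3 had no match to any of these, and the table had no entry for Gsdmc2, Gsdmc4 or Gsdmd. The GENCODE starts of Sprr2a1, Sprr2a2 and Sprr2a3 differ from the RefSeq starts used for these windows.

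Genes around the loci were examined within 1 Mb. Next to the Gsdmc genes, 2 of 3 other genes in the table were measured. Cyrib, encoding a regulator of Rac1, lies 16.8 kb beyond Gsdmc4 and had 532 and 672 reads in WT and Spib_KO, with a log2 ratio of 0.41 (0.24 to 0.57). Asap1, encoding an Arf GTPase-activating protein, lies 175 kb away and was called higher, with 268 and 605 reads and a log2 ratio of 1.24 (1.03 to 1.46). On the other side the nearest gene in the table was Myc, the proto-oncogene, more than 1 Mb away, with a log2 ratio of -0.25. Around Gsdmd, 48 of 68 other genes were measured, with a median log2 ratio of -0.08. Of these 2 were higher and 1 lower, beside 2.33% and 2.18% of all measured genes. The nearest neighbours of Gsdmd were Zc3h3, with a log2 ratio of -0.20, and Mroh6, with 50 and 21 reads. No other gene within 1 Mb of the Sprr2a genes was measured, including the nearest ones, Prr9 with 0 and 6 reads and Sprr2b.

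A list of 44 genes of pyroptosis and its inflammasomes, the protein complexes that activate caspase-1, had 31 measured members. Of these 0 were higher and 3 lower, where 2.33% and 2.18% of all measured genes were, and their median log2 ratio was -0.04 (0.044 without the expression filter). Casp1 and Casp4, encoding caspases that cut gasdermin D, had ratios of 0.05 (-0.05 to 0.15) and -0.80 (-1.28 to -0.34), and Casp8, encoding a caspase reported to cut gasdermin C, 0.27 (0.17 to 0.37). Pycard, encoding the inflammasome adaptor, stood at 540 and 514 CPM, a log2 ratio of -0.07. The lower genes were Gzma, encoding a protease of cytotoxic lymphocytes, with 317 and 22 reads, and the cytokine genes Il33 and Il18. Il18, whose product is matured by caspase-1 and leaves cells through gasdermin D pores, stood at 57.1 CPM in WT against 21.9 CPM in Spib_KO, with a log2 ratio of -1.38 (-1.56 to -1.21). Il33, an alarmin gene, had 150 and 18 reads, a ratio of -2.96 (-3.78 to -2.28).

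A cytokine signalling list held receptors and transducers of IL-4 and IL-13, other cytokine receptors such as Il17ra and Ifngr1, and inhibitors such as Socs1. Of its 26 members 24 were measured, 0 higher and 2 lower, with a median log2 ratio of -0.26. Over all measured genes 2.33% were called higher and 2.18% lower. Il4ra, the shared receptor chain, stood at 96.6 CPM in WT against 64.5 CPM in Spib_KO, with a ratio of -0.58 (-0.69 to -0.47). Il13ra1, its partner, had 142 and 192 CPM, a ratio of 0.44 (0.36 to 0.51). Stat6, the transcription factor of the IL-4 and IL-13 pathway, had 278 and 212 CPM, a ratio of -0.39 (-0.45 to -0.33). None of these passed the rule. The lower genes were Socs3, a feedback inhibitor of cytokine signalling, with a ratio of -2.17, and Ptpn6, encoding the phosphatase SHP-1, with -1.19.

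Other epithelial genes known from type 2 responses went in both directions. Of 28 measured members of a list of 38, 4 were higher and 9 lower, beside 2.33% and 2.18% of all measured genes, and their median log2 ratio was -0.20. The higher genes were Pla2g4c, a phospholipase gene with a ratio of 5.06, Tslp, an epithelial cytokine gene with 3.99, Duoxa2, a maturation factor of dual oxidase with 1.85, and Mptx1, a pentraxin gene with 1.64. Among the lower genes were Mptx2, with -4.77, Reg3b, with -4.38, and Reg3g, with -3.20. Of the 37 list members in the table, 14 are also in the goblet or Paneth cell lists, whose measured members were lower in 4 of 10 and 11 of 12 cases. Outside all cell type lists 12 members were measured, 4 higher and 1 lower, beside the same shares over all genes. This part keeps all 4 higher genes and 1 of the 9 lower ones. It was not among the planned lists, and nothing is read from its counts. Retnlb, a goblet cell product strongly induced in type 2 responses, had 0 reads in WT and 2 in Spib_KO. Clca1, which encodes a secreted mucus protein, stood at 269 and 431 CPM with a ratio of 0.68 (0.63 to 0.74), and Ang4, an antimicrobial ribonuclease gene, at 49.2 and 82.7 CPM with a ratio of 0.75 (0.63 to 0.87), both short of the rule. Clca1 was the only 1 of 10 measured goblet list members with a ratio above 0, and Ang4 the only 1 of 12 in the Paneth list.

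**Figure D5:**
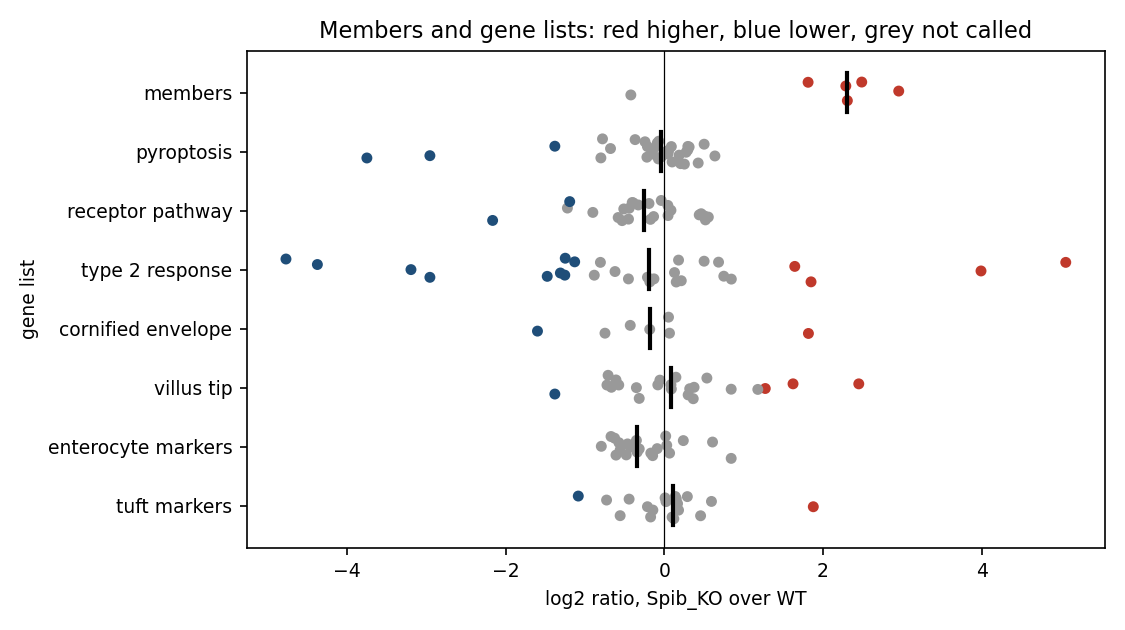
Log2 ratio of Spib_KO over WT for each measured gene of the 6 members and of 7 gene lists. Red points are called higher, blue points lower and grey points neither, and black bars are list medians. The median is 2.30 for the members and lies between -0.34 and 0.11 for the 7 lists shown. The members were picked partly on this contrast, so nothing is read from the difference of their median from those of the lists. Cell type lists not shown had medians of -0.85 (goblet), -2.52 (Paneth), -2.88 (enteroendocrine), -3.12 (leukocyte) and 0.14 (stem and crypt).

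Sprr2a and Gsdmc transcripts are also known from enterocytes and other epithelial cells, so markers of those cells are given beside the members. The enterocyte list had 21 of 21 members measured and 0 called, with a median log2 ratio of -0.34, and its summed level was 18785 CPM in WT against 19980 CPM in Spib_KO. Fabp1, a fatty acid-binding protein gene, and Apoa4, an apolipoprotein gene, were its most abundant members, with log2 ratios of 0.61 and -0.35, and no member was at 0 reads in either library. Fabp1 alone stood at 6968 CPM in WT and 10611 CPM in Spib_KO, and 6 of the 21 enterocyte ratios were above 0. Genes of the villus tip, where enterocytes end their life, had 3 of 23 measured members higher and 1 lower, with a median of 0.09. The higher ones were Nt5e, encoding an ectonucleotidase, with 18 and 96 reads, Pmp22, a membrane protein gene with a ratio of 1.62, and Enpp3, another ectoenzyme gene with 1.27. Il18, described above, was the lower one. Beside these calls, 2.33% of all measured genes were higher and 2.18% lower.

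Summed goblet cell markers stood at 2287 CPM in WT against 1412 CPM in Spib_KO, and Paneth cell markers 6540 and 1280 CPM. The leukocyte list had 6 measured members, 4 lower and 1 higher, with 5 of its genes at 0 reads in Spib_KO. The lower ones were Gzma, described above, Ccl5 with 219 and 13 reads, Lyz2 with 110 and 9, and Itgae with 117 and 16. The summed level of the list was 170 CPM in WT against 241 CPM in Spib_KO, most of it from the higher gene, Ptprc, at 98.7 and 229 CPM. Of 8 measured enteroendocrine markers 5 were lower and 2 higher. The enteroendocrine sum was 147 CPM in WT against 203 CPM in Spib_KO, most of the latter from Cpe, at 7.61 and 160 CPM. Of 8 measured stem and crypt markers none was called, and their list summed to 1391 and 1174 CPM. Over all measured genes 2.18% were lower and 2.33% higher. Goblet, Paneth, and stem and crypt sums were thus lower in Spib_KO, and enterocyte, enteroendocrine and leukocyte sums were higher. The part of any of these cell types in the members' ratios was not tested.

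The genes nearest to each member in level were sought over both libraries, by the distance of log2(CPM + 0.5), and with 2 libraries such likeness is weak. Nearest to Gsdmc2 were Car2, a carbonic anhydrase gene with 28.5 CPM in WT and 176 CPM in Spib_KO, and Lpin1. Gsdmc4 was nearest to Gimap3 and again Car2. Gsdmc3 was nearest to Clca3a1, with 6.78 and 32.8 CPM, and Clca3a2, with 8.28 and 43.4 CPM, both encoding proteins of the Clca family of chloride channel regulators. Sprr2a3 was nearest to Crb1, a cell polarity gene, and Mmp23, and Sprr2a1 to Crot and the receptor gene Kit. Gsdmd was nearest to Ptbp1, an RNA-binding protein gene with 230 and 168 CPM, and L1cam.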

How the data were processed

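The data were 2 RNA sequencing libraries of sorted tuft cells, made per the labels' protocols from TRIzol RNA by SMART-SeqII amplification and transposase-based construction. HISAT, Bowtie2 2.2.3 and the build mm10 are named in the submitters' processing notes. Neither the counting program nor the gene annotation is given in the sources used here. The deposited table gives FPKM, TPM and a read count for every gene, per the file headers. The read counts in the deposited table are expected counts: they are not whole for 19.0% of genes in WT and 18.6% in Spib_KO, and were rounded.

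Counts were scaled with TMM factors (edgeR 4.0.16, R 4.3.3), giving effective totals of 17996059 and 17161039. Log2 ratios used a prior count of 0.5, with exact conditional (Clopper-Pearson) 95% intervals. With 1 library per genotype no test was run. DESeq2 1.42.0 size factors, deposited TPM and FPKM values, and other filters were alternatives. The procedure was run on simulated Poisson counts, the model on which the intervals rest. These hold no variation between animals, from amplification or from read assignment, so the run cannot check the calls against such variation. Coding sequences, used in place of the proteins first planned, were aligned globally with Biopython 1.88. GENCODE M21 and RefSeq GRCm38.p6 share the mm10 assembly.

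The members and lists were chosen with earlier results of these data known. Genes were named by rule: the members, all gasdermin and Sprr genes in the table, Spib, locus neighbours, the 2 nearest in pattern, and called (or the 2 most abundant) genes of each list. Of the goblet, Paneth, enteroendocrine and stem cell lists only counts, sums and medians are given, except for Cpe and for members also in the type 2 response list. Casp1, Casp4, Casp8, Pycard, Il4ra, Il13ra1, Stat6, Retnlb, Clca1, Ang4, Duoxa2, Mptx1, Asap1, Epcam and Siglecf were chosen after their values were seen.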

Additional observations from a re-analysis of the deposited data

How the results depend on the processing

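No paired analysis was possible because each genotype has 1 library, and for the same reason no library could be left out. With scaling by total counts, DESeq2 size factors or the upper quartile, a prior count of 5, TPM, FPKM, the point estimate, both filters and the 4-fold bound, no member and no family sum changed sign. At the 4-fold bound Sprr2a1 (1.81) and the Sprr2a sum (1.27) were no longer called, since the bound itself is higher. Counting the Sprr2a genes as 1 gave 1.27 in place of 2.95 for Sprr2a3 and 1.81 for Sprr2a1, still called. The log2 ratio of Gsdmd was -0.45 to -0.41 and that of the Gsdmc sum 2.31 to 2.38. Over all genes, 425 were higher and 419 lower by the point estimate, 65 and 88 at the 4-fold bound, 595 and 716 of 17113 without the expression filter, and 101 and 106 with a CPM minimum of 20, as these rules admit more or fewer genes. The TPM and FPKM settings used another rule: a pseudocount of 1, a minimum of 5 in that unit and the ratio without its counting interval. With FPKM 165 of 8541 measured genes were higher, and with TPM 203 of 9106. Which part of the rule changed the number was not tested. Without the filter the list medians were 1.64 in place of 2.29 for the gasdermin family, 1.0 in place of 1.81 for the Sprr family, and 0.046 in place of -0.19 for the cornified envelope list, with 2 members higher and 2 lower. The pyroptosis median went from -0.04 to 0.044 and the enteroendocrine one from -2.88 to -1.3. The leukocyte list had 8 members lower without the filter in place of 4.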
